A study of Mus musculus with 24 samples.

Results

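The mitosis genes described here are 40 genes whose products condense and hold chromosomes, switch cells into mitosis, build the spindle, attach and check chromosomes, and divide the cell. They were chosen by gene symbol: a gene counted as measured where a probe set of the array carried its symbol and no other, and 38 of the 40 were measured, out of 22180 genes in all. Each of the 38 was read by 1 probe set. Ncapg, whose probe set also carries the symbol Lcorl, and Ccnb1, which is named by no probe set of a single symbol, were not analysed here.

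The values come from 24 Affymetrix arrays of cells pulled with magnetic beads and antibodies to Cd144 (VE-cadherin, the product of Cdh5) and Cd105 (endoglin, the product of Eng) out of papain-dissociated mouse tissue, 8 arrays a group. The hindbrain group is wild type adult hindbrain. The Shh group is Shh medulloblastoma from mice of genotype Ptch+/-; Ink4c-/-, and the Wnt group is Wnt medulloblastoma from mice that carry Blbp-Cre with the conditional alleles Ctnnb1 +/Exon3 flox, Trp53 flox/flox and, in heterozygous form, Pik3ca +/flox. All mice had a mixed strain background, and the labels give no age for the tumour mice. The Ptch and Ink4c alleles are not conditional, so the sorted vessel cells of those tumours carry them too, whereas the Wnt model's floxed alleles recombine where Blbp-Cre was active, in neural progenitors and glia and their descendants. The replicates are labelled as biological; how many animals each came from is not stated.

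Most genes of this set belong to a transcription programme that runs late in the cell cycle. In resting cells the DREAM complex keeps the programme off at promoters, and in cycling cells the MuvB core of that complex, joined by B-Myb (Mybl2) and then by Foxm1, turns it on. A short promoter element, the cell cycle genes homology region or CHR, is where MuvB contacts DNA, and CCAAT boxes bound by NF-Y often stand upstream of it. Blood vessel cells of the adult brain are largely out of cycle, and vessel growth in a tumour usually involves endothelial division.

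The promoters of 34 of the 40 genes were found in RefSeq windows of 300 bases, from 250 bases before to 50 bases from the transcription start on (GRCm38.p6). No entry was found for Smc4, Ccna2, Foxm1, Aurkb, Tpx2 and Kif20a. The windows were searched on both strands for the CHR letters TTTGAA, for the variant TTCGAA and for CCAAT. The first of these was present in the windows of 25 of the 34 genes (73.5%), against 5466 of 27025 genes with a window (20.2%). The next 3 stretches, of 130 bases each, show the arrangement in a kinase subunit, its cyclin and an activator of the anaphase-promoting complex, with every searched motif in capitals. They are printed 5′ to 3′ in the gene's direction, from 100 bases before the start, so that the last 30 bases of each run are transcribed. They lie at chr10:69352883-69353012 (minus strand) for Cdk1, chr9:70421525-70421654 (minus strand) for Ccnb2 and chr4:118437314-118437443 (minus strand) for Cdc20.
Cdk1: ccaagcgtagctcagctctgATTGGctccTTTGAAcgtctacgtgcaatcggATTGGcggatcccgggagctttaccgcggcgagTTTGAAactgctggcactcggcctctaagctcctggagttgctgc
Ccnb2: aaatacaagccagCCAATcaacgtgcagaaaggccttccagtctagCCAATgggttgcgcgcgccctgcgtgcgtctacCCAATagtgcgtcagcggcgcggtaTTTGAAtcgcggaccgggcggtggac
Cdc20: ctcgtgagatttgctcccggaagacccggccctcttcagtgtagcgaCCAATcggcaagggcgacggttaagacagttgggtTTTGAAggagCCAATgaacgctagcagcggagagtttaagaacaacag

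Counting the first transcribed base as 1 and the base before it as -1, the CHR letters of Cdk1 began at -71 and -15, those of Ccnb2 at -167 and 5, and those of Cdc20 at -18. CCAAT boxes of Cdk1 began at -208, -80 and -48, all on the opposite strand, where the capitals read ATTGG. Ccnb2 had 3 on the gene's own strand, at -87, -54 and -21. In Cdc20 a box began at -53 and another at -8, the latter after the CHR letters.

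The next 5 stretches carry the same pair of motifs in genes that work at the kinetochore, on the spindle and at the midzone, and they are shown because their CHR letters lie within 20 bases of the start. They are Cenpf at chr1:189688057-189688186 (minus strand), Kif18b at chr11:102925095-102925224 (minus strand), Kif11 at chr19:37376282-37376411 (plus strand), Prc1 at chr7:80294351-80294480 (plus strand) and Racgap1 at chr15:99651627-99651756 (minus strand). Prc1 has a further window that is not shown.
Cenpf: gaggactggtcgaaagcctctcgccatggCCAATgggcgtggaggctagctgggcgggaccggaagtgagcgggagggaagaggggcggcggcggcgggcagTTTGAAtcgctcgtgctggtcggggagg
Kif18b: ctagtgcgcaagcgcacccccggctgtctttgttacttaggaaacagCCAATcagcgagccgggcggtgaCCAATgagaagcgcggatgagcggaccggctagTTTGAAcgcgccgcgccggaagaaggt
Kif11: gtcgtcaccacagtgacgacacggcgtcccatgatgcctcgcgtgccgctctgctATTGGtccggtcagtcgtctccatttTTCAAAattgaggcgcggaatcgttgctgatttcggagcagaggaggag
Prc1: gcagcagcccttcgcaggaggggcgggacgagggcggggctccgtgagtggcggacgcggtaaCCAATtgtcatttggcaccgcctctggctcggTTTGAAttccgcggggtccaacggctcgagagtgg
Racgap1: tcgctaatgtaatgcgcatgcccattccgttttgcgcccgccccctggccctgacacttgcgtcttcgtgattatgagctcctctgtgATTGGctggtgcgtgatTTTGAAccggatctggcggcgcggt

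The CHR letters began at 3 in Cenpf, 4 in Kif18b, 6 in Racgap1 and -5 in Prc1. In Kif11 they began at -19 on the opposite strand, where the capitals read TTCAAA. Of the 34 genes with a window, 23 (67.6%) had CHR letters whose first base lay within 50 bases of the start, against 5.72% of all genes. CCAAT was found in 24 of the 34 (70.6%), against 41.1% of all genes, and CCAAT together with the CHR letters or the variant in 22 (64.7%), against 8.61%. No CHR letters shared a base with a CCAAT box in the 36 windows of these genes. By its letters, though, a CCAAT box can share no more than an end base with the CHR letters.

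Bub1 and Ncaph are the contrast. Bub1 (chr2:127831830-127831959 (minus strand)) had the variant letters at 15 and CCAAT boxes at -68 and -42 but no TTTGAA, and Ncaph (chr2:127133925-127134054 (minus strand)), the gene whose change was smallest in both tumour groups, had none of the 3 motifs in its window. Windows without any of them were also those of Melk, Mad2l1, Nuf2, Birc5 and Nusap1, each of which rose in both tumour groups.
Bub1: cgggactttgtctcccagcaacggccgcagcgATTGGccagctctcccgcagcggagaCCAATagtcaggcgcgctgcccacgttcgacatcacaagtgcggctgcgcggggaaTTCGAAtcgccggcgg
Ncaph: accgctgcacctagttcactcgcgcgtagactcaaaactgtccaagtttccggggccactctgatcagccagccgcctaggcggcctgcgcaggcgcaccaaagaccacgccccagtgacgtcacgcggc

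The other cell cycle lists differed in how often the letters occurred. TTTGAA was in the windows of 30 of 50 further mitosis genes (60.0%) and 7 of 17 transcriptional regulators of the cell cycle (41.2%). It was in 3 of 20 subunits and regulators of the anaphase-promoting complex and cohesin (15.0%). Of 28 DNA replication genes 4 had it (14.3%), and of 12 G1 cyclins, kinases and inhibitors 1 did (8.33%). These are matches of letters, and binding was not measured. The share for the mitosis genes fell to 35.3% when the window ended at the start, against 18.3% of all genes, because many of the matches lie in the first transcribed bases.

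**Figure D1:**
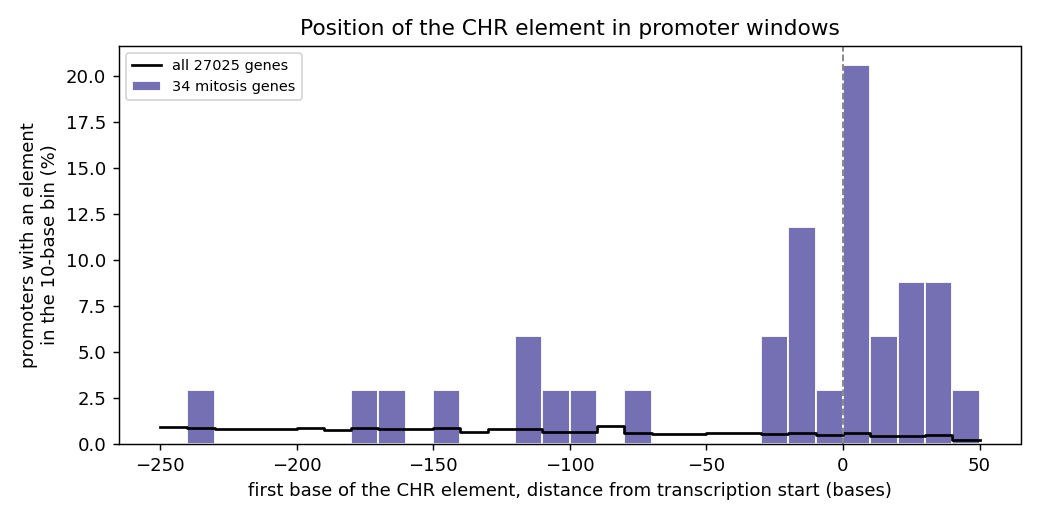
Share of promoter windows (vertical axis, percent) whose CHR letters TTTGAA begin in each 10-base bin of distance from the transcription start (horizontal axis, bases). Bars are the 34 mitosis genes with a window, and the line is all 27025 genes, each by its first listed window. The bars are tallest from the start to 10 bases after it, where 7 of the 34 windows have an element.

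In every Wnt and Shh tumour array the mitosis genes as a set stood above every hindbrain array. The mean log2 signal of the 38 genes was 6.08 to 6.39 over the hindbrain arrays, with a median of 6.15. It was 7.62 to 9.12 over the Shh arrays, with a median of 8.54, and 7.24 to 8.82 over the Wnt arrays, with a median of 8.37. Signals here are log2 values on which 1 unit is a 2-fold difference. In sorted bulk cells, more dividing cells and more of these RNAs per cell cannot be told apart.

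Against hindbrain, 37 of the 38 genes rose in the Wnt arrays and 38 of 38 rose in the Shh arrays, by limma with a Benjamini-Hochberg adjusted p under 0.05 over all 22180 genes. By the same test 23.2% of all genes rose in Wnt and 18.9% in Shh; counting both directions, 45.3% and 37.8% of all genes changed. The median log2 difference of the 38 genes was 1.84 in Wnt and 2.18 in Shh, where the median over all genes was -0.023 and -0.020. For 36 genes in Wnt and 38 in Shh every tumour array lay above every hindbrain array, which 10.6% and 7.13% of all genes did. Rises of at least 2-fold were called for 36 genes in Wnt and 37 in Shh, against 6.79% and 4.14% of all genes. The Wnt and Shh comparisons share the hindbrain arrays, so the values are given side by side and not as independent evidence of one another.

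**Figure D2:**
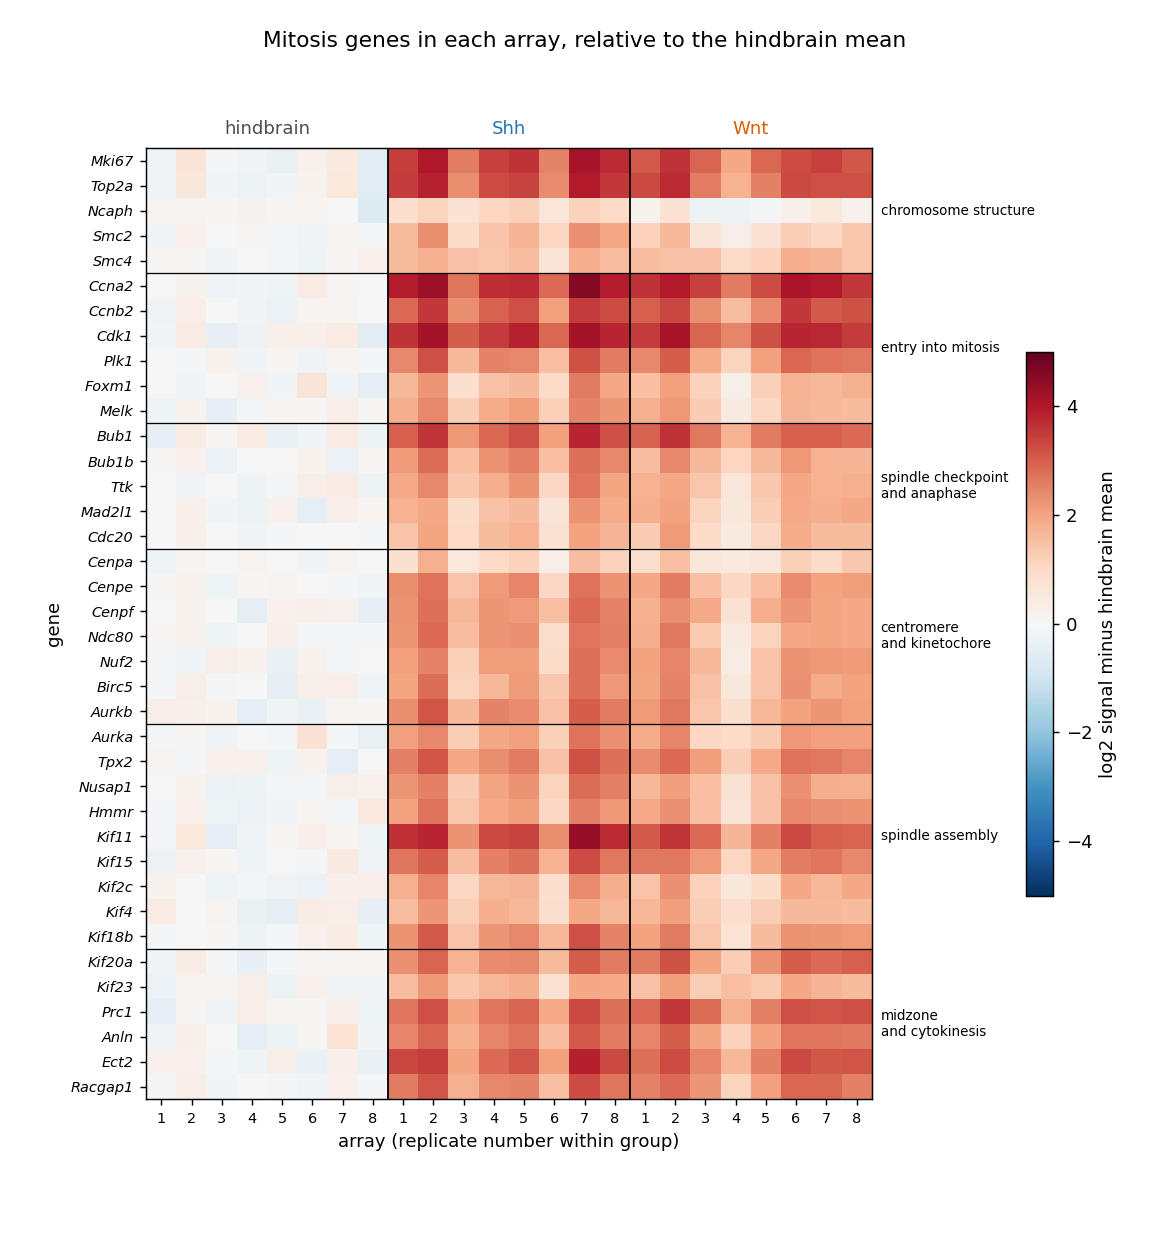
Log2 signal of each of the 38 mitosis genes (rows, grouped by role) in each of the 24 arrays (columns, numbered by replicate within group), as the difference from that gene's hindbrain mean; red is higher and blue lower. Nearly all tumour columns are red from top to bottom, Ncaph is pale in the Wnt columns, and columns 3 and 6 of Shh and 4 of Wnt are paler than their neighbours.

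The cells carried the markers their sort implies, and other cell types' markers moved with the groups. The mean of 16 endothelial markers ran from 11.41 to 11.73 over the hindbrain arrays, from 11.33 to 11.80 over Shh and from 9.90 to 11.12 over Wnt. All 16 were lower in Wnt, while in Shh 1 was higher and 2 were lower. The mean of 15 granule neuron precursor markers, the lineage from which Shh medulloblastoma arises, ran from 6.54 to 6.83 in hindbrain, from 7.47 to 9.20 in Shh, and from 6.67 to 7.20 in Wnt, and 13 of the 15 rose and 0 fell in Shh, while 4 rose and 3 fell in Wnt. Dcx was at or under the level of the array's non-mouse control probe sets in hindbrain, and Barhl1, Dcx and Neurod1 were in Wnt. Fibroblast markers (10 genes) averaged from 7.65 to 8.29 in hindbrain, from 8.79 to 9.93 in Shh, and from 8.95 to 10.21 in Wnt, and 8 rose and 1 fell in each tumour. Microglia markers fell, with 12 of 13 lower in Wnt and 11 in Shh. Their mean was bright in hindbrain, at 10.18 to 11.10, and ran from 7.80 to 10.35 in Shh and from 7.63 to 9.40 in Wnt. Pericyte markers (10 genes) were bright too, averaging from 9.92 to 11.05 in hindbrain, from 10.28 to 10.73 in Shh and from 8.30 to 10.20 in Wnt. Over all genes 23.2% rose and 22% fell in Wnt, and 18.9% rose and 18.9% fell in Shh. The precursor counts in Wnt were near those shares, and the endothelial counts in Shh were under them.

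Those marker levels changed the counts when they entered the model as a covariate. The share of all genes called moved with them. With the endothelial marker mean, 20 mitosis genes rose in Wnt (median 1.10), where 9.91% of all genes rose in place of 23.2%, and 38 in Shh (median 2.14; 19.4% of all genes). With the granule neuron precursor mean, 37 rose in Wnt (median 1.72; 22.8% of all genes) and 9 in Shh (median 1.18), where 2.58% of all genes rose in place of 18.9%. The 9 were Mki67, Top2a, Smc4, Ccna2, Ccnb2, Cdk1, Bub1, Kif11 and Prc1. With the fibroblast mean, 21 rose in Wnt (median 1.45; 8% of all genes) and 38 in Shh (median 1.88; 7.72% of all genes). The arrays of Wnt in the endothelial mean, of Shh in the precursor mean and of both tumours in the fibroblast mean do not overlap the hindbrain arrays, so that marker level and group cannot be told apart there, and which cells the mitosis transcripts came from was not tested.

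**Figure D3:**
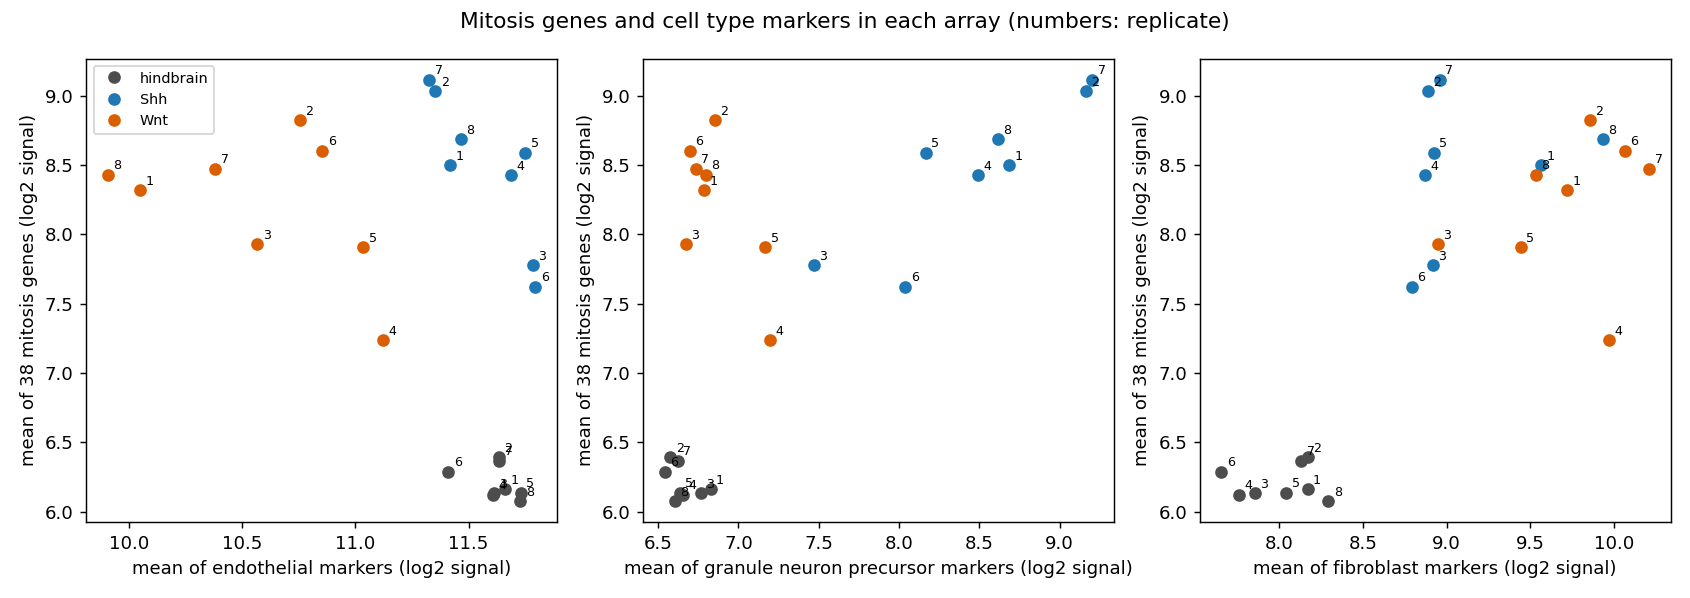
Mean log2 signal of the 38 mitosis genes (vertical axis) against the mean of the endothelial, granule neuron precursor and fibroblast markers (horizontal axes, log2 signal), 1 point per array with its replicate number and coloured by group. Shh arrays 2 and 7 have the highest mitosis means of their group and array 7 the highest precursor mean. Wnt array 4 has the lowest mitosis and the highest endothelial mean of its group. Wnt arrays 1 and 8 have the lowest endothelial means and mitosis means in the middle of the group.

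Among the genes of chromosome structure, Mki67 and Top2a rose most and the condensin genes less. Mki67 encodes Ki-67, which coats mitotic chromosomes and is the usual marker of cycling cells. Its log2 signal was 6.32, 6.72 and 7.46 in hindbrain (lowest, median and highest array), 9.32, 10.36 and 10.94 in Shh, and 8.76, 9.92 and 10.46 in Wnt. No tumour array overlapped the hindbrain arrays, and Wnt array 4 was low within its group. The log2 difference from hindbrain was 3.03 ± 0.24 (SE, n = 8 a group, limma adjusted p = 1.61e-10) in Wnt and 3.42 ± 0.24 (adjusted p = 7.49e-11) in Shh. Top2a, the topoisomerase that untangles sister chromatids, was at 5.25, 5.67 and 6.39 in hindbrain, 8.15, 9.25 and 9.79 in Shh, and 7.57, 9.05 and 9.53 in Wnt, again without overlap, and differed from hindbrain by 2.96 ± 0.26 in Wnt and 3.28 ± 0.26 in Shh.

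The 3 measured condensin genes of the set, whose products compact chromosomes, rose in Shh, and Smc2 and Smc4 rose in Wnt. Smc2, an ATPase of both condensins, was at 6.78, 6.87 and 7.12 in hindbrain, 7.82, 8.55 and 9.23 in Shh, and 7.18, 7.999 and 8.52 in Wnt. Its arrays in either tumour lay above hindbrain, by 1.01 ± 0.19 in Wnt and 1.65 ± 0.19 in Shh. Its partner Smc4 differed by 1.44 ± 0.13 and 1.47 ± 0.13. Ncaph, the kleisin subunit that closes the condensin I ring, was at 7.37, 8.14 and 8.22 in hindbrain, 8.63, 9.08 and 9.23 in Shh, and 7.78, 8.23 and 8.78 in Wnt. Every Shh array was above hindbrain, by 0.95 ± 0.14 (limma adjusted p = 6.5e-06), whereas the Wnt arrays overlapped the hindbrain arrays and the difference of 0.16 (95% interval -0.12 to 0.45, adjusted p = 0.367) was not called. Ncaph was the single gene of the 38 that did not pass in Wnt.

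All 6 measured genes of entry into mitosis rose in both tumours, with a median difference of 2.56 in Wnt and 2.70 in Shh. Ccna2 encodes cyclin A2, which drives S phase and prophase. It showed the largest difference of the 38 in both comparisons. Its arrays read 6.15, 6.38 and 6.78 in hindbrain, 9.04, 10.21 and 10.97 in Shh, and 8.98, 9.95 and 10.47 in Wnt. The lowest tumour array thus stood over 2 units above the highest hindbrain array, and the differences were 3.55 ± 0.23 in Wnt and 3.71 ± 0.23 in Shh. Cdk1, the kinase whose activity defines mitosis, was at 5.72, 6.33 and 6.67 in hindbrain, 9.15, 9.98 and 10.43 in Shh, and 8.71, 9.77 and 10.37 in Wnt, with no overlap and differences of 3.40 ± 0.22 and 3.63 ± 0.22. Its mitotic cyclin Ccnb2 differed by 2.79 ± 0.24 and 2.96 ± 0.24.

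Plk1, a kinase that acts from mitotic entry to cytokinesis, was at 6.497, 6.65 and 6.82 in hindbrain, 8.17, 9.11 and 9.90 in Shh, and 7.77, 9.20 and 9.67 in Wnt. The hindbrain arrays were tightly grouped and all tumour arrays were higher, by 2.34 ± 0.24 in Wnt and 2.43 ± 0.24 in Shh. Foxm1, the transcription factor of the late programme, had the smallest rise of this role in both tumours. It read 6.28, 6.69 and 7.41 in hindbrain, 7.60, 8.39 and 9.33 in Shh, and 7.04, 8.33 and 8.81 in Wnt. Wnt array 4 was below hindbrain array 6, the single overlap, and the differences were 1.42 ± 0.24 (limma adjusted p = 1.84e-05) and 1.66 ± 0.24 (adjusted p = 4.51e-06). Melk, a kinase of cycling cells, differed by 1.45 ± 0.21 and 1.90 ± 0.21 from a hindbrain mean that was not above the 95th percentile of the control probe sets, 5.24.

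The 5 genes of the spindle checkpoint and anaphase rose in both tumours, with medians of 1.56 in Wnt and 1.92 in Shh. Bub1, the checkpoint kinase at the kinetochore, changed most. It was at 4.89, 5.30 and 5.76 in hindbrain, 7.39, 8.44 and 9.16 in Shh, and 7.07, 8.23 and 8.95 in Wnt, without overlap, and differed from hindbrain by 2.79 ± 0.24 and 2.99 ± 0.24. The other checkpoint genes rose less. BubR1 (Bub1b) differed by 1.74 ± 0.18 and 2.23 ± 0.18, the Mps1 kinase Ttk by 1.56 ± 0.20 and 1.92 ± 0.20, and Mad2l1, which restrains the anaphase-promoting complex, by 1.55 ± 0.21 in each. Cdc20, the activator of that complex, was at 7.42, 7.54 and 7.78 in hindbrain, 8.30, 9.18 and 9.56 in Shh, and 8.005, 8.98 and 9.66 in Wnt, and had the smallest rise of this role, 1.37 ± 0.19 and 1.52 ± 0.19, still without overlap.

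All 7 genes of the centromere and kinetochore rose, with medians of 1.80 in Wnt and 2.13 in Shh. Cenpa, the histone H3 variant that marks the centromere, rose least. It was at 7.23, 7.43 and 7.58 in hindbrain, 7.77, 8.51 and 9.22 in Shh, and 7.91, 8.35 and 8.92 in Wnt. No tumour array reached down into the hindbrain range, and the differences were 0.94 ± 0.17 (limma adjusted p = 6.4e-05) and 1.04 ± 0.17 (adjusted p = 3.63e-05). The kinetochore motor Cenpe was at 5.39, 5.62 and 5.77 in hindbrain, 6.63, 7.89 and 8.31 in Shh, and 6.63, 7.58 and 8.20 in Wnt, a rise of 1.89 ± 0.22 and 2.13 ± 0.22. Cenpf, an outer kinetochore protein, rose by 1.84 ± 0.20 and 2.22 ± 0.20. Ndc80 and Nuf2 form part of the microtubule-binding complex of the kinetochore. They rose by 1.64 ± 0.25 and 1.80 ± 0.25 in Wnt and by 2.14 ± 0.25 and 1.99 ± 0.25 in Shh.

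Aurkb and Birc5 belong to the chromosomal passenger complex, which corrects wrong attachments and later directs cytokinesis. The kinase Aurkb was at 6.32, 6.89 and 7.11 in hindbrain, 8.24, 9.20 and 9.94 in Shh, and 7.62, 8.81 and 9.43 in Wnt, and differed by 1.87 ± 0.24 and 2.38 ± 0.24. Survivin (Birc5) was at 4.36, 4.81 and 5.18 in hindbrain, 5.97, 6.91 and 7.63 in Shh, and 5.44, 6.77 and 7.35 in Wnt. Neither gene overlapped hindbrain in either tumour. The Birc5 differences were 1.76 ± 0.24 and 1.99 ± 0.24, from a hindbrain level that lay among the control probe sets. The hindbrain means of Melk, Birc5, Hmmr and Kif15 were all at or under that control level, so their fold changes may be understated; no tumour mean was.

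The 9 spindle assembly genes rose in both tumours, with medians of 1.84 in Wnt and 2.08 in Shh. Kif11, the bipolar motor Eg5 that pushes spindle poles apart, led. It was at 5.51, 5.98 and 6.51 in hindbrain, 8.23, 9.497 and 10.41 in Shh, and 7.70, 8.96 and 9.57 in Wnt. All tumour arrays were above hindbrain, and the differences were 2.86 ± 0.26 and 3.35 ± 0.26. Kif15, a motor that backs up Kif11, rose by 2.26 ± 0.23 and 2.52 ± 0.23, and Tpx2, which targets and activates Aurora A at the spindle, by 2.27 ± 0.22 and 2.49 ± 0.22. Aurora A itself (Aurka) rose by 1.73 ± 0.23 and 1.98 ± 0.23. The microtubule depolymerase Kif2c had the smallest rise of this role in Wnt, from 5.67, 5.95 and 6.31 in hindbrain to 6.81, 7.72 and 8.41 in Shh and 6.56, 7.53 and 8.25 in Wnt, without overlap. Its differences were 1.48 ± 0.23 and 1.71 ± 0.23. The chromosome-bound motor Kif4, the plus-end motor Kif18b, and the spindle proteins Nusap1 and Hmmr lay between 1.49 and 1.85 in Wnt and between 1.61 and 2.34 in Shh.

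The 6 genes of the midzone and cytokinesis rose by a median of 2.44 in Wnt and 2.45 in Shh. Prc1 bundles the antiparallel microtubules of the midzone. It read 5.23, 5.73 and 5.98 in hindbrain, 7.57, 8.38 and 8.96 in Shh, and 7.45, 8.66 and 9.22 in Wnt. Every tumour array was above hindbrain, by 2.88 ± 0.22 in Wnt and 2.67 ± 0.22 in Shh. Kif23, the motor subunit of centralspindlin, was at 6.81, 7.13 and 7.40 in hindbrain, 7.87, 8.84 and 9.26 in Shh, and 8.35, 8.66 and 9.19 in Wnt, and had the smallest rise here, 1.61 ± 0.16 and 1.64 ± 0.16. Its partner Racgap1 rose by 2.37 ± 0.23 and 2.48 ± 0.23. Ect2 is an exchange factor that sets the division plane, anillin (Anln) scaffolds the contractile ring, and the motor Kif20a carries the passenger complex to the midzone. Ect2 rose by 2.77 ± 0.25 and 2.999 ± 0.25, Anln by 2.33 ± 0.23 and 2.43 ± 0.23, and Kif20a by 2.51 ± 0.23 and 2.36 ± 0.23.

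**Figure D4:**
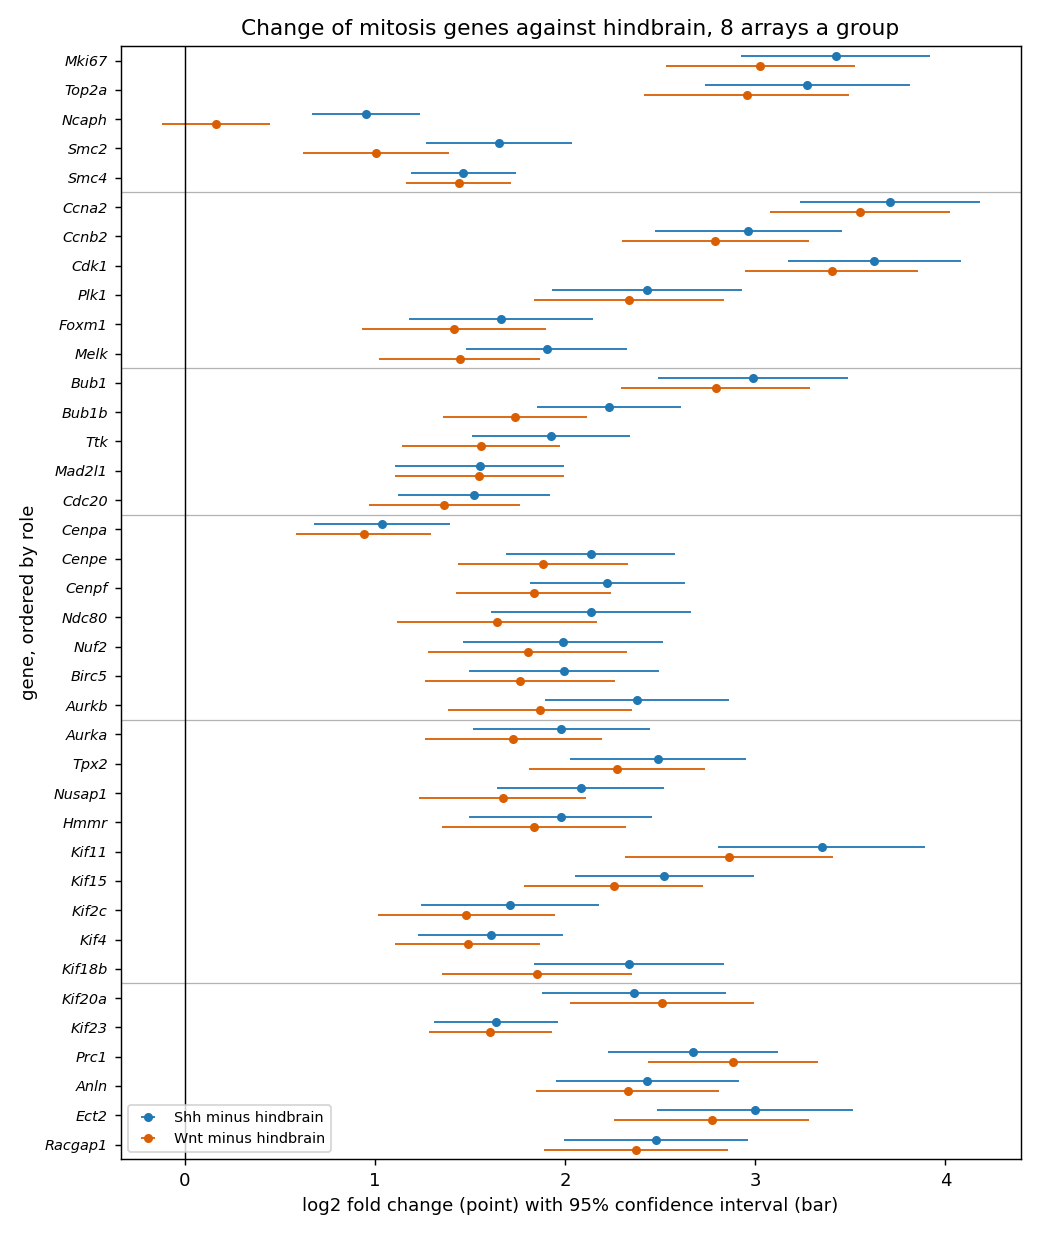
Log2 fold change against hindbrain (horizontal axis; point, with its 95% confidence interval as a bar) for each of the 38 mitosis genes (vertical axis, ordered by role, with grey lines between roles), in Shh (blue) and Wnt (orange), n = 8 arrays a group. Every interval lies to the right of 0 except that of Ncaph in Wnt, and Kif20a and Prc1 are the genes whose Wnt point lies to the right of the Shh point.

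Between the tumours the arrays overlapped for all 38 genes, and few differences were called. In Wnt against Shh, 0 of the 38 genes were higher and 3 were lower by limma, where 18% of all genes were higher and 17.8% lower (35.8% in either direction). No gene of the 38 had every Wnt array below every Shh array, as 4.32% of all genes did. At an unadjusted p under 0.05, 5 of the 38 differed. The 3 were Ncaph, lower by 0.79 ± 0.14 (adjusted p = 6.29e-05), Smc2, lower by 0.65 ± 0.19 (adjusted p = 0.00776), and Bub1b, lower by 0.50 ± 0.18 (adjusted p = 0.0364). For Ncaph, 7 Wnt arrays lay under the lowest Shh array of 8.63, and Wnt array 2 was at 8.78. The point estimate was under 0 for 36 of the 38 genes, with a median of -0.23 against -0.0019 over all genes, and above 0 for Prc1 (0.21, 95% interval -0.24 to 0.66) and Kif20a (0.15, interval -0.33 to 0.63).

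The count of genes lower in Wnt depended on which arrays were in the fit. It was 7 without Shh array 3, 8 without Shh array 6 and 6 without Wnt array 2. Without Shh arrays 2 and 7 together it was 1 (Ncaph), and the median difference was 0.0011. These are the 2 Shh arrays with the highest mitosis means (9.03 and 9.12). Leaving them out had to lower the Shh level, so no conclusion is drawn from that fit. With the endothelial marker mean as a covariate 18 genes were lower in Wnt (median -1.06, with 6.82% of all genes lower). With the granule neuron precursor mean 0 were called (median 0.61, with 7.88% of all genes lower). The Wnt and Shh arrays do not overlap in the endothelial mean (9.90 to 11.12 against 11.33 to 11.80). Nor do they in the precursor mean (6.67 to 7.20 against 7.47 to 9.20). Marker level and group therefore cannot be told apart in these 2 fits. For the 35 genes that were not called, a missing call does not show equal levels. The interval of Ccna2, for one, ran from -0.63 to 0.32, that of Cdk1 from -0.68 to 0.23, and that of Kif11 from -1.03 to 0.06.

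**Figure D5:**
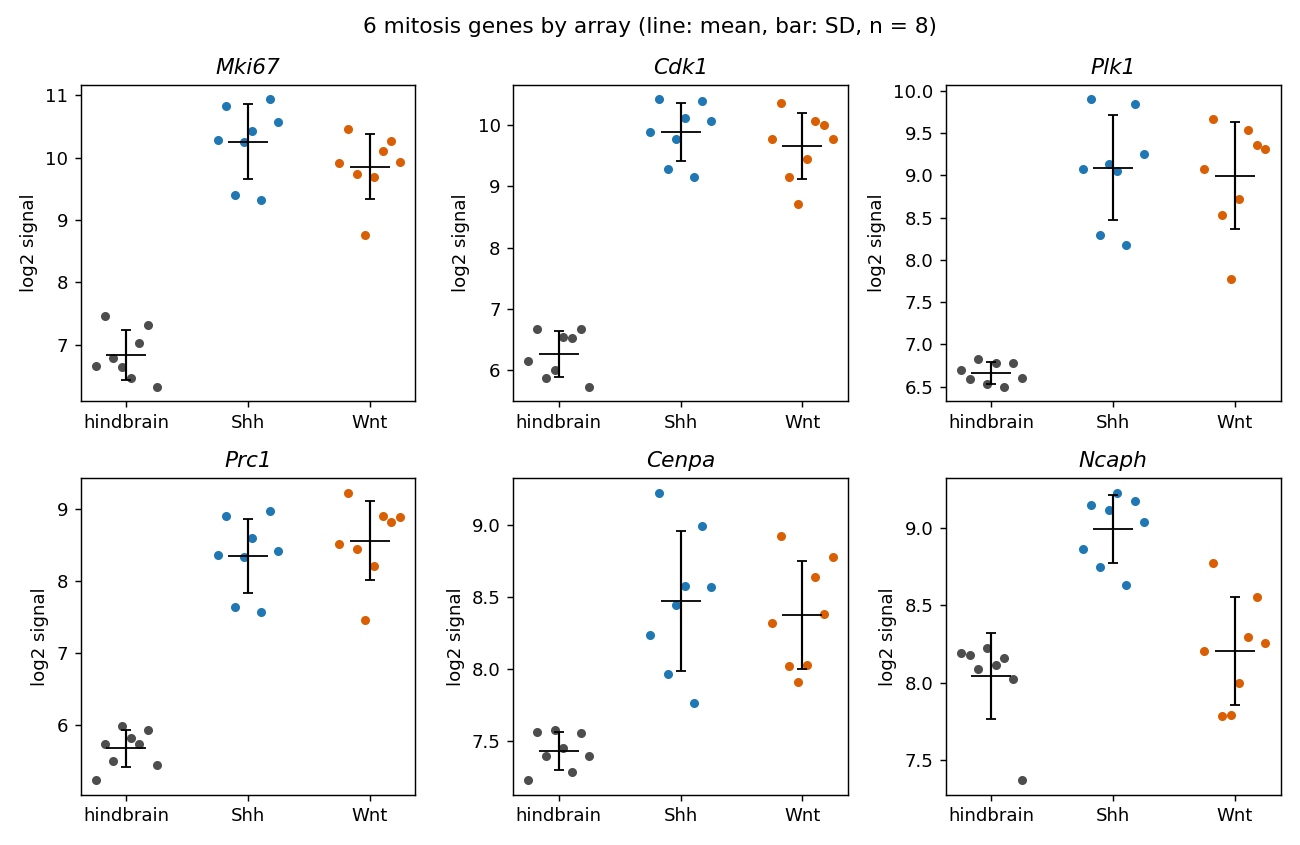
Log2 signal (vertical axis) of Mki67, Cdk1, Plk1, Prc1, Cenpa and Ncaph in each array, by group (horizontal axis), with the mean as a line and the SD as a bar (n = 8 a group). In the first 5 panels both tumours stand clear of hindbrain and overlap one another, and in the Ncaph panel the Wnt arrays overlap the hindbrain arrays and, in array 2, the Shh arrays.

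The tumour arrays varied in these genes more than the hindbrain arrays did, and they varied together. The median SD of the 38 genes over the hindbrain arrays was 0.24, over the Shh arrays 0.56 and over the Wnt arrays 0.54, where the median SD of all genes was 0.18, 0.21 and 0.21. Within Shh, array 7 was the highest in 24 genes and array 2 in 13, while array 6 was the lowest in 28 and array 3 in 10. Within Wnt, array 2 was the highest in 29 genes and array 6 in 8, while array 4 was the lowest in 36. In hindbrain no array led as often: array 2 was the highest in 11 genes and array 7 in 9. Shh array 7 also had the lowest endothelial mean (11.33) and the highest granule neuron precursor mean (9.20) of its group. Shh array 2 read 11.35 and 9.16 in those means. Shh array 6 had the highest endothelial mean (11.80) and a precursor mean of 8.04. Shh array 3 had an endothelial mean of 11.785 and the lowest precursor mean of the group (7.47). Wnt array 4 had the highest endothelial mean (11.12) and also the highest granule neuron precursor mean (7.20) of the Wnt arrays. Wnt arrays 1 and 8 had the lowest endothelial means of that group (10.05 and 9.90). Their mitosis means (8.32 and 8.43) lay in the middle of the group. The part of those cell type markers in the spread of the mitosis genes was not tested.

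Other genes of the cell division machinery, from lists that hold none of the 40, moved to different degrees. Of 58 measured further mitosis genes, 54 rose in Wnt (median 1.204) and 56 in Shh (median 1.41), against 23.2% and 18.9% of all genes. Of the 58, 0 fell in either. In Wnt the largest rises were those of Depdc1a at 2.86 ± 0.23, the kinase Pbk at 2.69 ± 0.25 and Ube2c, the ubiquitin-conjugating enzyme of the anaphase-promoting complex, at 2.56 ± 0.23. In Shh they were those of Depdc1a at 3.11 ± 0.23, the spindle protein Ckap2 at 2.79 ± 0.25 and Pbk at 2.63 ± 0.25. The hindbrain level of Depdc1a was not above the control probe sets. Of the condensin II genes on the list, Ncapd3 (0.17 ± 0.09) and Ncaph2 (0.15 ± 0.08) were not called in Wnt, whereas Ncapg2 rose by 1.17 ± 0.21. Securin (Pttg1) was not called in either, with differences of -0.12 ± 0.21 in Wnt and 0.36 ± 0.21 in Shh. Nor was Cdc25b, at 0.20 ± 0.15 in Wnt and 0.31 ± 0.15 in Shh. Between the tumours 5 of the 58 were lower in Wnt, where 17.8% of all genes were, among them the condensin genes Ncapd2 at -0.70 ± 0.17 and Ncapg2 at -0.59 ± 0.21.

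The subunits and regulators of the anaphase-promoting complex and of cohesin did not move as a block. Of 24 measured, 10 rose and 5 fell in Wnt (median 0.058), and 9 rose and 1 fell in Shh (median 0.076). Over all genes 23.2% rose and 22% fell in Wnt, and 18.9% rose and 18.9% fell in Shh. The share of the 24 that rose was thus above that of all genes in both tumours. The share that fell was near it in Wnt and under it in Shh. Cdc16, a scaffold subunit of the complex, rose most, by 1.22 ± 0.12 in Wnt and 0.61 ± 0.12 in Shh. Its neighbour Anapc4 rose by 0.72 ± 0.08 and 0.32 ± 0.08, and the G1 activator Fzr1 by 0.36 ± 0.08 and 0.38 ± 0.08. The cohesin subunit Stag1 fell by 0.58 in Wnt and by 0.22 in Shh. In Wnt the cohesin loader Nipbl (-0.32 ± 0.07) and the release factor Wapl (-0.24 ± 0.07) fell too.

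DNA replication genes rose too, with smaller medians than the 1.84 and 2.18 of the mitosis genes. Of 32 measured, 28 rose in Wnt (median 0.86) and 31 in Shh (median 0.93), against 23.2% and 18.9% of all genes. Pole, the leading-strand polymerase, rose by 2.65 ± 0.25 and 2.75 ± 0.25, and Rrm2, the regulated subunit of ribonucleotide reductase, by 2.60 ± 0.25 and 2.30 ± 0.25. The hindbrain level of Pole was not above the control probe sets. Next came the methylation maintenance factor Uhrf1 in Wnt (1.69 ± 0.20) and the helicase subunit Mcm6 in Shh (1.93 ± 0.30). Pcna, the sliding clamp, was 0.33 ± 0.11 lower in Wnt and was not called in Shh at -0.15 ± 0.11. Pcna was bright in hindbrain, at 11.11 to 11.43. Between the tumours 5 of the 32 were lower in Wnt, a share near the 17.8% of all genes, with Mcm6 at -1.09 ± 0.30.

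Of 21 transcriptional regulators of the cell cycle, 10 rose and 3 fell in Wnt (median 0.14), and 11 rose and 1 fell in Shh (median 0.21). By the same test 23.2% of all genes rose and 22% fell in Wnt, and 18.9% rose and 18.9% fell in Shh. The shares of regulators that fell were under those of all genes. E2f8, a repressor of the E2F family that is itself made in S phase, rose by 2.21 ± 0.25 and 2.63 ± 0.25, and E2f1 by 1.28 ± 0.20 and 1.42 ± 0.20. Tfdp1, a dimer partner of E2F proteins, was next in Wnt at 1.12 ± 0.13. B-Myb (Mybl2) was next in Shh at 1.11 ± 0.13. B-Myb was lower in Wnt than in Shh by 0.40 ± 0.13 (limma adjusted p = 0.0144). In Wnt the NF-Y subunit Nfya (-0.38 ± 0.08) and the MuvB subunits Lin54 (-0.35 ± 0.07) and Lin52 (-0.26 ± 0.08) fell, and Lin52 (-0.24 ± 0.08) was the 1 that fell in Shh.

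The G1 genes moved in both directions. Of 15 measured, 9 rose and 2 fell in Wnt, and 8 rose and 1 fell in Shh. Between the tumours 5 were higher and 5 lower in Wnt, where 18% and 17.8% of all genes were. Against hindbrain 23.2% of all genes rose and 22% fell in Wnt, and 18.9% rose and 18.9% fell in Shh. The shares of G1 genes that fell were thus under those of all genes. The inhibitor Cdkn1c (p57) was at 7.62, 7.76 and 8.09 in hindbrain, 6.07, 6.44 and 6.92 in Shh, and 8.16, 8.85 and 9.64 in Wnt. Its 3 groups did not overlap: it rose by 1.03 ± 0.17 in Wnt, fell by 1.36 in Shh, and was 2.39 ± 0.17 higher in Wnt than in Shh. In Wnt the largest rises were those of Cdkn2c at 1.72 ± 0.19, cyclin D1 (Ccnd1) at 1.57 ± 0.13 and Cdk6 at 1.29 ± 0.19, and p21 (Cdkn1a, -0.78 ± 0.18) and p27 (Cdkn1b, -0.28 ± 0.11) fell. In Shh they were Cdk6 at 1.52 ± 0.19, the phosphatase Cdc25a at 1.10 ± 0.08 and Cdk4 at 1.01 ± 0.11. Cdkn2c is the Ink4c gene, deleted in the Shh model, yet its probe set read 7.37, 7.81 and 8.20 in Shh against 6.49, 7.29 and 7.71 in hindbrain. Where its probes lie relative to the deleted part is not stated in the labels, so this value does not check the genotype.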

How the data were processed

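RNA of 24 sorted cell samples was labelled as biotinylated cRNA and hybridised to Affymetrix arrays, per the labels. The authors deposited 1 log2 value per probe set and array; that scale was read from the values. Partek 6.6 is named in the submitters' processing notes without a role, and how the signals were background-corrected and normalized is not stated there or in the labels. Array medians ran from 5.96 to 6.18, and no 2 arrays held identical values. The number of arrays, 8 a group, limits the precision.

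Of 41345 probe sets, 190 were controls, 23521 carried 1 gene symbol in the platform annotation, 1814 several and 15820 none. Probe sets with 1 symbol were kept and the one with the highest mean taken where a gene had several (1082 of 22180 genes). limma 3.58.1 in R 4.3.3 (lmFit, eBayes without trend, group as the single factor, all 24 arrays, 21 residual degrees of freedom) gave log2 differences, SE, 95% intervals and two-sided p-values, Benjamini-Hochberg adjusted over all genes and called under 0.05. The procedure was tested on simulated data. The background level is the 95th percentile (5.24) of 92 non-mouse ERCC control probe sets.

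The 40 genes and the comparison lists were chosen with earlier results of these data known. In each role, the genes with the largest and smallest change in Wnt and a preset list (Mki67, Top2a, Ccnb1, Cdk1, Plk1, Aurkb, Birc5, Foxm1, Bub1, Prc1, Kif11, Smc2) are given by lowest, median and highest array, and for other lists the 3 largest called rises and falls. The closing section gives the alternatives. The marker lists for neurons, oligodendrocytes, lymphocytes, pericytes, smooth muscle, astrocytes and red blood cell precursors are given there too. Promoter sequences and their positions are those of RefSeq (GRCm38.p6); the arrays' build was not used.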

Additional observations from a re-analysis of the deposited data

Results flagged for a closer look

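Among the 38 genes in 3 groups, 8 of 114 groups held 1 array whose gap to its nearest neighbour was a large share of the group's range (above Dixon's critical value for 8 arrays). Chance alone gives about 1 in 20. Of the 8, 4 concerned Wnt array 4, which was the lowest of its group in Mki67 at 8.76 (next 9.69), in Ttk at 5.91 (next 6.65), in Cenpf at 6.68 (next 7.73) and in Racgap1 at 7.56 (next 8.52). Shh array 6 was the lowest in Smc4 at 8.57 (next 9.31). In hindbrain, array 8 was the lowest in Ncaph at 7.37 (next 8.02), array 2 the highest in Cdc20 at 7.78 (next 7.56), and array 6 the highest in Aurka at 7.18 (next 6.53).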

How the results depend on the processing

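Against hindbrain, 37 of the 38 genes rose in Wnt and 38 in Shh in each of the 24 fits that left out 1 array, with medians of 1.75 to 2.01 and 2.10 to 2.32. The counts were also 37 and 38 with quantile normalization, with arrays shifted to one median, without dim genes, with a variance trend and with array weights. They were the same with the compared groups alone, with the microglia marker mean as covariate, without Wnt replicates 1 and 8, and without Shh replicates 2 and 7. The mean of a gene's probe sets, or every probe set on its own, also gave 37 and 38. Each of the 38 genes has 1 probe set, so these settings could change only what is estimated over all genes. With the microglia covariate 17.5% of all genes rose in Wnt and 14.4% in Shh. In that mean the Wnt arrays (7.63 to 9.40) do not overlap the hindbrain arrays (10.18 to 11.10), so marker level and group cannot be told apart there. The exceptions were other marker covariates. With the endothelial mean 20 rose in Wnt (median 1.10; 9.91% of all genes, against 23.2%), with the fibroblast mean 21 did (8% of all genes), and with the granule neuron precursor mean 9 rose in Shh (median 1.18; 2.58% of all genes, against 18.9%). Covariates for granule neuron precursor, fibroblast and microglia markers and the fit without Shh replicates 2 and 7 were added after the data were seen.

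In Wnt against Shh, the count of lower genes was 2 to 8 and the median -0.35 to -0.077 when 1 array was left out. It was 2 without Wnt replicates 1 and 8, with arrays at one median, with the compared groups alone and with the microglia covariate. It was 1 (median 0.0011) without Shh replicates 2 and 7, the 2 Shh arrays with the highest mitosis means. It was 18 (median -1.06) with the endothelial covariate and 0 (median 0.61) with the precursor covariate. In both marker means the Wnt and Shh arrays do not overlap, so marker level and group cannot be told apart there. Under the precursor covariate Smc2 (0.28) and Bub1b (0.32) turned positive. The cause was not tested. With replicate number as a block the count of lower genes was 5, and the block moved no count against hindbrain. Same-numbered arrays correlated at -0.15 to 0.28 over 24 pairs, and over 0.1 in 3. In 6 of the 24 pairs, an array correlated best with its own number among the arrays of the other group. Replicate 5 did so in each pair of groups (0.14, 0.083 and 0.28). Whether the numbers pair arrays cannot be told from these values, and the main fit did not use them. The share of promoters with the CHR letters was 35.3% in the upstream part alone, against 73.5% in the whole window, because the matches after the start are then left out.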

Other observations

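The remaining cell type markers gave the following counts, to be read against all genes, of which 23.2% rose and 22% fell in Wnt and 18.9% rose and 18.9% fell in Shh. Of 10 pericyte markers, 6 fell in Wnt, and 2 fell and 1 rose in Shh, with Atp13a5 at -5.01 ± 0.58 in Wnt. Of 11 astrocyte and neural stem cell markers, 8 rose and 0 fell in Shh, led by Fabp7 at 3.04 ± 0.32, and 3 rose and 3 fell in Wnt. Of 10 neuron markers, 5 fell and 3 rose in Wnt and 5 fell and 2 rose in Shh, with Stmn2 at -3.71 ± 0.27 in Wnt. Of 9 oligodendrocyte lineage markers, 5 fell and 1 rose in Wnt and 4 fell and 3 rose in Shh, with Mbp at -2.75 ± 0.15 and -1.88 ± 0.15. Of 9 lymphocyte markers, 5 fell and 0 rose in Wnt, and 2 rose and 0 fell in Shh. Of 6 smooth muscle markers, 5 fell and 0 rose in Shh, and 2 fell and 1 rose in Wnt; Myh11 fell by 2.65 in Shh and by 2.12 in Wnt, and the 1 that rose in Wnt was Myocd. Of 2 red blood cell precursor markers, 1 rose in Shh (Epor, 0.80 ± 0.14) and 0 were called in Wnt.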
